A study of Mus musculus with 18 samples.

Results

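The 40 genes described here make up the core of the NF-kB pathway: its 5 subunits, 5 inhibitors and regulators of the IkB family, the kinases and TRAF adaptors that carry signals to them, the cytokines and receptors that start the signals, and 6 target genes. They were chosen by name, from a fixed list of symbols, out of 55291 genes listed in each of the 2 deposited count tables, and all 40 symbols were present in both. They were measured by bulk MARS-seq, which counts the 3′ ends of transcripts, in whole pancreas and liver of mice with an altered Otub2 gene. Otub2 encodes a deubiquitinase of the OTU family, an enzyme that removes ubiquitin from proteins, and the study concerns its role in the function and survival of pancreatic beta cells. The labels name 3 genotypes: OTUB2 +/+ (WT), OTUB2 +/- (HET) and OTUB2 -/- (HOM). There were 11 pancreas libraries (WT 3, HET 5, HOM 3) and 7 liver libraries (WT 2, HET 5), and HOM liver was not analysed here. The animals were kept under normal conditions with no added treatment. Sex was labelled for pancreas: WT 16, HET 9 and HET 11 were female, and WT 11, WT 12, HET 10, HET 15, HET 16, HOM 10, HOM 19 and HOM 21 were male. The strain, the age and the deleted stretch of Otub2 are not given in the sources used here. Whether each library came from a separate animal is not stated either, so p-values may measure only the spread between these samples.

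NF-kB is a family of dimeric transcription factors held in the cytoplasm by IkB proteins. Receptors for tumour necrosis factor, interleukin 1 and microbial products recruit TRAF adaptors, ubiquitin ligases and kinases, ubiquitin chains join them into active complexes, and the IkB kinase then marks IkB for destruction. Freed dimers bind kappaB sites and switch on chemokine, adhesion and survival genes, and also the genes of their own inhibitors. A second, non-canonical arm runs through the kinase NIK (Map3k14), which TRAF2, TRAF3 and the cIAP ligases normally keep low, and which acts by way of Nfkb2 and Relb. In liver the pathway drives the acute-phase response of hepatocytes, and in the pancreas it is known for its part in the response of islets to cytokines.

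Promoter sequences of 32 of the 40 genes were found in the RefSeq table (GRCm38.p6, the mm10 build), each running from 250 bases before to 50 bases after a start. Entries for Ccl2, Ikbkb, Nfkb1, Nfkbiz, Relb, Tab1, Tradd and Vcam1 were missing. The kappaB consensus, searched on both strands with overlapping matches joined, lay in the promoters of 13 of the 32 genes (40.6%), against 9.55% of all 27025 genes in that table. Those 13 were Bcl3, Cxcl1, Cxcl10, Cyld, Il1r1, Irak1, Map3k7, Nfkb2, Nfkbia, Nfkbie, Rel, Sod2 and Traf3. The narrower kappaB element of the immunoglobulin kappa light chain, which is 1 form of the consensus, was found in Cyld and Nfkb2 and in 0.155% of all promoters. These shares are a description and were not tested. The windows below are a selection from these 13 genes. Windows before a start in Nfkb2, Cyld, Map3k7 and Nfkbie are not shown. Capitals mark the match, and each window shown lies before a start, on the strand of the gene.
Nfkbia, chr12:55492652-55492691, minus strand: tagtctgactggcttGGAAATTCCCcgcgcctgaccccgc
Sod2, chr17:13007741-13007780, plus strand: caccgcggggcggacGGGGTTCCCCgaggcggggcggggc
Cxcl10, chr5:92349024-92349063, minus strand: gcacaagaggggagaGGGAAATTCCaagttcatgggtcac
Cxcl10, chr5:92348968-92349008, minus strand: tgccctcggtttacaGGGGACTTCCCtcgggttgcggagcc
Cxcl1, chr5:90891159-90891199, plus strand: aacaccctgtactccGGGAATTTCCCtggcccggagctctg
Il1r1, chr1:40266339-40266378, plus strand: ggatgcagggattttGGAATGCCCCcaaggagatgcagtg
Rel, chr11:23771036-23771076, minus strand: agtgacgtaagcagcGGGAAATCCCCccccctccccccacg
The matches began 29 bases before the start in Nfkbia, 83 in Sod2, 159 and 104 in Cxcl10, 71 in Cxcl1 and 92 in Rel, and 232 before a start within the gene in Il1r1. A match describes the letters of the window and was not tested for binding.

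Libraries held 49502 to 1326541 counts in pancreas and 155201 to 1686234 in liver. Liver libraries carried their label: a list of 8 hepatocyte genes summed to between 87452 and 117203 CPM, the counts a gene would have in a library of 1000000 counts. The pancreas libraries did not carry theirs clearly. Of 12 acinar genes, 6 were at 0 in every pancreas, among them Prss2 and Cel, and the acinar list summed to 15.8 to 149 CPM in WT, 43.0 to 141927 CPM in HET and 2423 to 10442 CPM in HOM, highest in HET 11 and HET 16. In HOM that sum was the gene Clps alone, and in HET 11 Clps held 188192 of the list's 188272 counts. These sums thus follow Clps and do not measure the acinar list as a whole. HET 11 and HET 16, a female and a male, stood apart from the other 9. Counts of olfactory, vomeronasal, taste and trace amine receptor genes, which neither organ is known to use, took 0.0149% of HET 11 (Wilson 95% interval 0.0129 to 0.0171%) and 0.0252% of HET 16 (0.0217 to 0.0293%), against 0.233 to 0.696% of the other pancreata. A list of 13 stomach mucosa genes summed to 247565 CPM in HET 11, 217197 CPM in HET 16 and 18.4 to 29635 CPM in the other HET. It summed to 24.6 to 101 CPM in WT and 5607 to 17922 CPM in HOM, so that HOM and WT differed in it without overlap. The part of these contents in the pancreas results was not tested. HET 11 and HET 16 also held 66.5% of all pancreas counts. Group means, fold changes and limits that rest on them are given with and without them, except for sums scaled by TMM. Otub2 had 3, 4 and 3 counts in the WT pancreata, 1 in HET 16, 1 in HOM 10 and 0 in the other HET and HOM, and 0 to 2 in each liver. These counts are too few to check single libraries, and whether the counted 3′ end lies in the deleted part is not known.

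Over all libraries of a tissue, 37 of the 40 genes had at least 1 count in liver and 33 in pancreas, beside 33.6% and 36.7% of all genes listed. At least 10 counts were reached by 30 genes in liver and 22 in pancreas. Rel, Tnf and Il1b had 0 counts in liver, which over 4163558 counts allows up to 0.721 CPM. Nfkbie, Ikbkg, Birc2, Il1r1, Cxcl1, Ccl2 and Vcam1 had 0 counts in pancreas, which over 3005022 counts allows up to 0.998 CPM, or 2.98 CPM over the 1007893 counts without HET 11 and HET 16. These limits cover counting error only. In liver 20 of the 40 were found in every library, and in pancreas 5: Nfkbia, Map3k14, Il1b, Cxcl10 and Sod2. The share of all genes found in every library was not worked out.

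**Figure D1:**
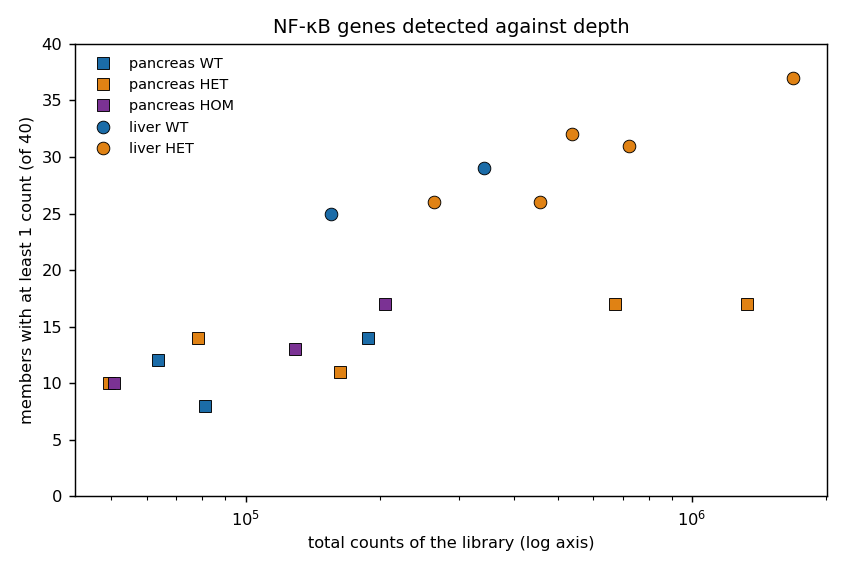
Number of the 40 genes with at least 1 count in each library (y axis) against the library's total counts (x axis, log scale), by tissue and genotype. Single livers held 25 to 37 of the genes and single pancreata 8 to 17.

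The number of the 40 genes found also differed between the tissues at equal depth. With each library thinned, by calculation, to the 49502 counts of the shallowest, 13.7 to 17.8 of the 40 genes were expected in a liver and 5.50 to 12.5 in a pancreas. The ranges did not overlap. The like number over all genes was not worked out for liver at this depth. Whether the difference is particular to these 40 genes is thus not known. HET 11 and HET 16 lay within the pancreas range, at 8.07 and 7.77. Without these 2 libraries, the number of genes with at least 3 counts over the pancreata fell from 31 to 23. As these are bulk samples, fewer cells of a type and less RNA per cell cannot be told apart.

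**Figure D2:**
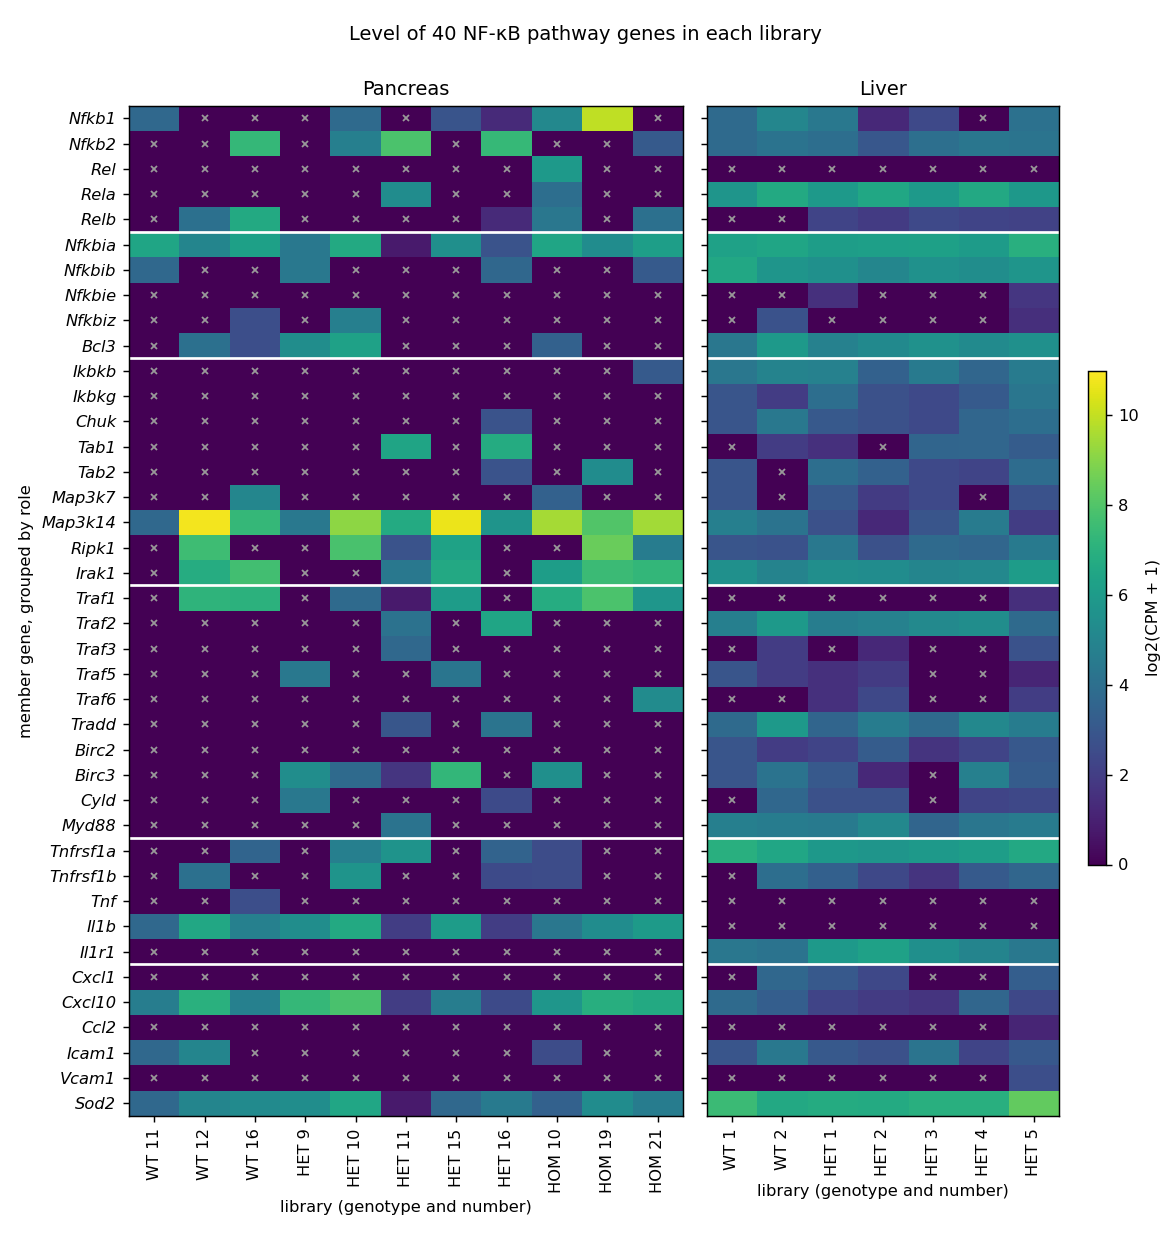
Level of each of the 40 genes in each of the 18 libraries, as log2(CPM + 1), with a cross where a gene had 0 counts and white lines between roles. Of the 40 rows, 20 are filled in all 7 livers, while in pancreas filled cells are scattered and 5 rows are complete.

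In liver the question was whether loss of 1 copy of Otub2 went with a change in these genes. In edgeR's quasi-likelihood test, 13 of the 40 genes passed the filter on low counts, and none of the 13 was called at a Benjamini-Hochberg adjusted p below 0.05, where 0 of all 4803 genes tested were called (0%). At an unadjusted p below 0.05, 1 of the 13 passed, Il1r1, where 10.3% of all genes did. DESeq2 called 16 of all genes and none of the 13. Of the 13, 4 had a higher and 9 a lower fitted level in HET. Their median log2 fold change was −0.08, beside 0.03 over all genes tested. The levels of HET and WT did not overlap for 2 of the 13, Il1r1 above and Nfkbib below, where 18.0% of all genes tested did not overlap. The summed level of all 40 genes was 864 ± 65.3 CPM in WT (SD, n = 2) and 776 ± 165 CPM in HET (SD, n = 5). HET 5, with 1065 CPM, lay above both WT, and the other 4 HET, from 662 to 748 CPM, lay below both.

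**Figure D3:**
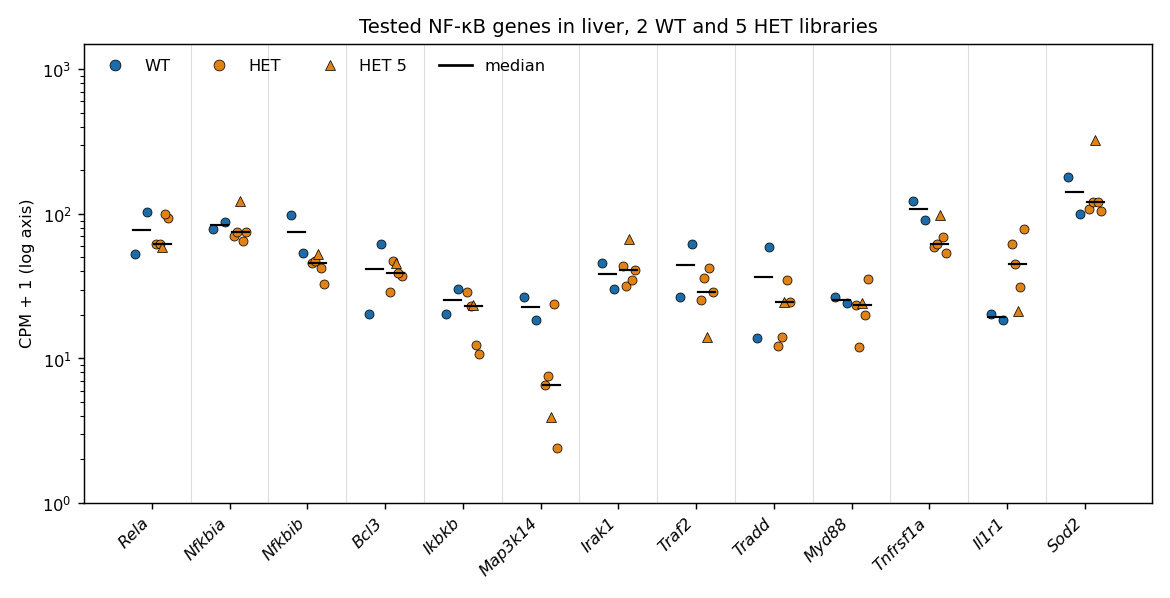
CPM of the 13 genes tested in liver, 1 point a library, with WT and HET side by side, a bar at the group median and a triangle for HET 5. Il1r1 in HET runs from 20.2 to 77.6 CPM above WT at 17.5 and 19.3 CPM, and for most other genes the points of the groups mix.

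Il1r1 encodes the receptor that binds interleukin 1 and signals through Myd88 and Irak1. It stood at 19.3 and 17.5 CPM in WT 1 and WT 2, from 3 and 6 counts, and at 61.4, 77.6, 43.8, 30.2 and 20.2 CPM in HET 1 to HET 5. All 5 HET were above both WT, HET 5 by less than 1 CPM. The log2 fold change of HET over WT was 1.47 ± 0.67 (SE; 95% interval 0.05 to 2.89), with an unadjusted p of 0.0433 and an adjusted p of 0.466 in edgeR. Il1rap, the co-receptor that Il1r1 needs for signalling, was not among the 40 and comes from a further list of pathway genes. It stood at 25.8 and 5.84 CPM in WT and 63.3, 45.7, 24.1, 18.9 and 67.6 CPM in HET, so that HET 3 and HET 4 lay between the WT. Its log2 fold change was 1.88 ± 0.73 (SE; edgeR adjusted p = 0.393).

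Tnfrsf1a, the main receptor for tumour necrosis factor, stood at 122 and 90.5 CPM in WT and 57.7, 52.7, 61.4, 68.0 and 97.9 CPM in HET. Only HET 5 reached the WT range. Its log2 fold change was −0.54 ± 0.38 (SE; edgeR adjusted p = 0.649). Tnfrsf1b, the second receptor for the same cytokine, had 0 and 5 counts in WT and 1 to 19 in HET, too few to pass the filter. The ligands Tnf and Il1b had no count in any liver.

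Among the adaptors, Traf2, which joins receptor complexes to the cIAP ligases, stood at 25.8 and 61.3 CPM in WT and 24.2, 27.7, 35.1, 41.6 and 13.05 CPM in HET. Tradd, which links Tnfrsf1a to Traf2 and Ripk1, stood at 12.9 and 58.4 CPM in WT and 11.2, 23.6, 13.2, 34.0 and 23.7 CPM in HET. For both genes the 2 WT were far apart, WT 2 being the highest of the 7 livers, and the HET spread across the lower WT. Their log2 fold changes were −0.68 ± 0.55 and −0.82 ± 0.59 (SE), and without WT 2 they turned to 0.15 and 0.75. Myd88, the adaptor of interleukin 1 and Toll-like receptors, stood at 25.8 and 23.4 CPM in WT and 22.3, 34.7, 11.0, 18.9 and 23.1 CPM in HET, on both sides of WT. Myd88 overlaps Acaa1a on the opposite strand and Slc22a14 on the same strand. The other adaptors and ligases were sparse: Traf5 had 7 counts over the 7 livers, Traf6 9, Traf3 12 and Cyld 19, while Traf1 had 3, all in HET 5. Of the cIAP ligases, Birc3 had 33 counts and was at 0 in HET 3, and Birc2 had 24.

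Of the kinases, Map3k14 encodes NIK, the kinase that starts the non-canonical arm. It stood at 25.8 and 17.5 CPM in WT, from 4 and 6 counts, and at 5.58, 1.39, 6.58, 22.7 and 2.97 CPM in HET. Of the 5 HET, 4 lay below both WT, and HET 4 lay between them. Its log2 fold change was −1.67 ± 1.06 (SE; 95% interval −3.91 to 0.57), with an adjusted p of 0.613 in edgeR. Ikbkb, the catalytic IkB kinase of the canonical arm, stood at 19.3 and 29.2 CPM in WT and 27.9, 9.70, 21.9, 11.3 and 22.5 CPM in HET. Irak1, the kinase next to Myd88, stood at 45.1 and 29.2 CPM in WT and 42.8, 40.2, 30.7, 34.0 and 65.8 CPM in HET. The groups overlapped for both, with log2 fold changes of −0.31 ± 0.62 and 0.38 ± 0.49 (SE). Ripk1, Chuk and Ikbkg had counts in all 7 livers, with totals of 63, 46 and 50, and did not pass the filter. Map3k7, which encodes the kinase TAK1, had 19 counts, and its partners Tab1 and Tab2 had 24 and 42.

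Of the IkB family, 3 genes passed the filter. Nfkbib, which encodes IkB beta, stood at 96.6 and 52.5 CPM in WT and 44.7, 31.9, 46.0, 41.6 and 51.6 CPM in HET. Every HET was below both WT, HET 5 by less than 1 CPM. Its log2 fold change was −0.64 ± 0.42 (SE; 95% interval −1.53 to 0.24), and its adjusted p was 0.627 in edgeR. The gene overlaps Ccer2 and Sirt2 on the opposite strand, and it is not known whether counting used strand. Sirt2 stood at 96.6 and 143 CPM in WT and 106 to 160 CPM in HET.

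Nfkbia encodes IkB alpha, the inhibitor that NF-kB itself induces and whose promoter window is printed above. It stood at 77.3 and 87.6 CPM in WT and 68.9, 73.5, 74.5, 64.2 and 122 CPM in HET. HET 5 was above both WT and the other 4 HET were below both. The log2 fold change was 0.07 ± 0.38 (SE; 95% interval −0.74 to 0.87), and without HET 5 it was −0.12. Bcl3, a nuclear IkB protein that works with p50 and p52, stood at 19.3 and 61.3 CPM in WT and between 27.9 and 46.0 CPM in HET, inside the WT range. Nfkbie and Nfkbiz had 5 counts each over all livers.

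Among the subunits only Rela, the p65 activating subunit, passed the filter. It stood at 51.5 and 102 CPM in WT and 61.4, 92.9, 61.4, 98.2 and 58.1 CPM in HET, all 5 between the WT. Its log2 fold change was −0.02 ± 0.41 (SE; 95% interval −0.88 to 0.85). Nfkb2, the p100 and p52 subunit, had 2 to 30 counts in each liver, and Nfkb1, the p105 and p50 subunit, 0 to 27. Relb, the partner of p52, had 0 counts in both WT and 1 to 6 in each HET, too few for a comparison.

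Of the 6 targets, Sod2 alone passed the filter. It encodes the mitochondrial superoxide dismutase, which protects cells during tumour necrosis factor signalling. It stood at 180 and 99.2 CPM in WT and 108, 104, 121, 121 and 326 CPM in HET. HET 5 was above both WT, and the other 4 HET lay between them. The log2 fold change was 0.28 ± 0.46 (SE; 95% interval −0.69 to 1.24), and without HET 5 it was −0.15. The chemokine Cxcl10 had 1 to 7 counts in each liver, the adhesion gene Icam1 1 to 12, and the neutrophil attractant Cxcl1 0 to 15. Ccl2 and Vcam1 had counts in HET 5 alone, 2 and 9, and HET 5 was the deepest liver library.

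HET 5 was thus the highest liver for Nfkbia, Sod2 and the sum of all 40 genes, but the lowest for Saa1, the acute-phase protein that liver makes in inflammation. Saa1 stood at 567 and 703 CPM in WT and 544, 4326, 8821, 510 and 77.1 CPM in HET. Acute-phase genes did not all follow Saa1. Fgg and Crp were highest in HET 5, at 2098 and 135 CPM, against at most 896 and 45.1 CPM in WT. The sum of 16 acute-phase genes was lowest in HET 5, at 13260 CPM. HET 2 and HET 3 were high for Saa1 and ordinary for Nfkbia and Sod2. Marker lists of other cells were read beside these values. The Kupffer cell and macrophage list of 11 genes summed to 812 and 823 CPM in WT and 404 to 819 CPM in HET, with HET 5 lowest, and no gene of it was at 0 in all livers. The neutrophil list summed to 0 to 5.84 CPM in each liver, with S100a8, Ly6g and Retnlg at 0. The part of macrophage content in these results was not tested.

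**Figure D4:**
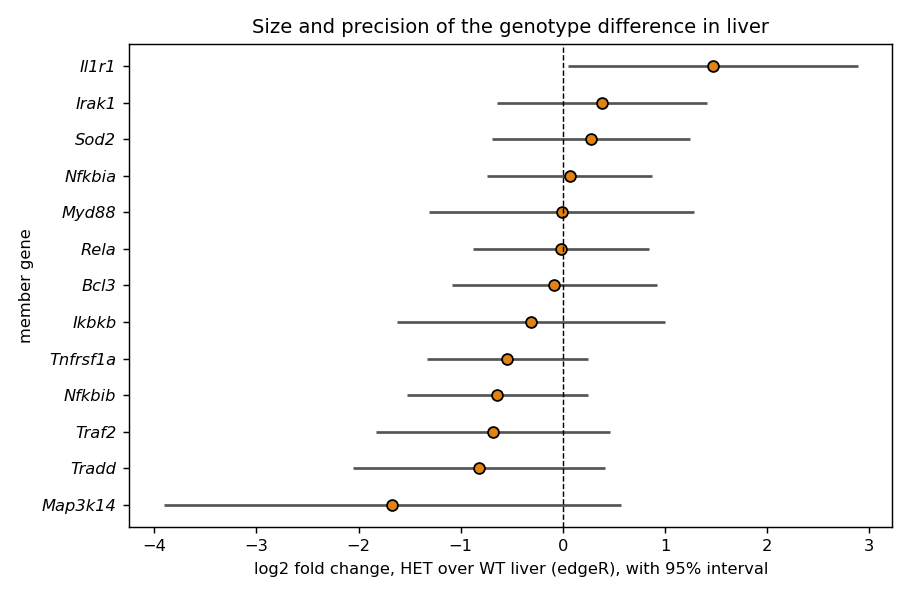
Log2 fold change of HET over WT in liver for the 13 genes tested (points, edgeR), with 95% intervals as bars. The interval of Il1r1 begins at 0.05, and the intervals of the other 12 span 0.

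The intervals set how far the liver data reach. In the filtered fit, those of Rela and Nfkbia excluded a change of 2-fold in either direction, and those of 10 of the 13 genes a change of 4-fold. For Il1r1, Map3k14 and Tradd a 4-fold change in 1 direction stayed within the interval. These are intervals of single genes and are not adjusted for their number. They also depended on the filter. With none beyond 1 count, the interval of Nfkbia ran from −0.64 to 1.09, so that a 2-fold rise was not excluded. In that fit the interval of Rela ran from −0.76 to 0.99, and that of Tradd from −1.86 to 0.48.

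Other genes of the pathway, from lists drawn up by function, were read in the same fit. Of 22 negative regulators and ubiquitin enzymes, 11 were tested in liver, 4 with a higher and 7 with a lower fitted level in HET, with a median log2 fold change of −0.26 and 0 called. Of 33 further adaptors, kinases and receptors, 9 were tested, 4 higher and 5 lower, with a median of −0.03 and 0 called. Of 32 further targets, 6 were tested, 2 higher and 4 lower, with a median of −0.51 and 0 called. Of 16 acute-phase genes, 15 were tested, 14 higher and 1 lower, with a median of 0.80 and 0 called. The acute-phase list summed to 18595 and 20542 CPM in WT and 14980, 33058, 61338, 17721 and 13260 CPM in HET, so that HET 2 and HET 3 lay above both WT and the other 3 HET below both. Over the 4 lists, 5 of 41 tested genes passed the unadjusted threshold, where 10.3% of all genes did. Rbck1 had the smallest p of the 4 lists. It encodes HOIL-1, a subunit of the complex that builds linear ubiquitin chains on NF-kB signalling proteins, and stood at 64.4 and 87.6 CPM in WT and 20.5, 26.3, 28.5, 15.1 and 30.8 CPM in HET. Both WT were above all HET. The log2 fold change was −1.52 ± 0.43 (SE; edgeR adjusted p = 0.247, unadjusted p = 0.00232). Rnf31, the catalytic subunit of that complex, had 64.4 and 37.9 CPM in WT and 18.4 to 37.8 CPM in HET. Sharpin, the accessory subunit, had 51.5 and 46.7 CPM in WT and 16.8 to 43.3 CPM in HET. All 5 HET were below both WT for each of these genes too, and neither passed the unadjusted threshold. Nkiras2, an inhibitor that slows the loss of IkB, went the other way, with 25.8 and 29.2 CPM in WT and 29.8, 36.0, 59.2, 56.7 and 36.8 CPM in HET. Every HET was above both WT, and its log2 fold change was 0.71 ± 0.52 (SE; edgeR adjusted p = 0.661). Groups without overlap made up 18.0% of all genes tested.

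In the same lists Irf1 and Ikbke also passed the unadjusted threshold with lower levels in HET. Irf1, a transcription factor and NF-kB target, stood at 103 and 75.9 CPM in WT and 22.3, 41.6, 50.4, 41.6 and 47.4 CPM in HET, with a log2 fold change of −1.01 ± 0.42 (SE; edgeR adjusted p = 0.419). Ikbke, an IkB kinase relative, stood at 38.7 and 26.3 CPM in WT and 7.45, 4.16, 13.2, 7.56 and 11.9 CPM in HET, with a log2 fold change of −1.71 ± 0.74 (SE; edgeR adjusted p = 0.434). The groups did not overlap for either gene, as for 18.0% of all genes. Orm1, an acute-phase gene, had a log2 fold change of 1.43 ± 0.63 (SE; edgeR adjusted p = 0.478), with WT at 1263 and 908 CPM and HET from 1199 to 5364 CPM. HET 5, at 1199 CPM, lay between the WT.

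In pancreas, 3 comparisons asked whether the genes followed the number of intact Otub2 copies. Only 7 of the 40 genes passed the filter: Nfkb2, Nfkbia, Map3k14, Ripk1, Irak1, Traf1 and Cxcl10. In edgeR with sex as a covariate, none of the 7 was called for any pair of genotypes, where 0 of 3719 genes were called in each (0%). DESeq2 called 5, 183 and 53 of all genes for HOM and WT, HET and WT, and HOM and HET, none of them among the 7, and gave no p for Nfkb2 in the comparisons with HET. At an unadjusted p below 0.05, 0 of the 7 passed between HOM and WT (4.97% of all genes), 0 between HET and WT (13.9%) and 1, Nfkb2, between HOM and HET (11.0%). None of the 7 had groups that did not overlap, where 11.2%, 4.33% and 6.70% of all genes did not overlap in the same 3 comparisons. The 3 comparisons share groups and are not independent. The median log2 fold change of the 7 was 0.01 for HOM over WT, 0.37 for HET over WT and −0.09 for HOM over HET, beside 0.19, −0.20 and 0.35 over all genes tested. Without HET 11 and HET 16, 5 of the 40 genes were tested, with medians of 0.26, −0.53 and −0.39. The spread was wide, with a coefficient of biological variation of 166% in pancreas against 35.4% in liver. The summed level of the 40 genes was 1248 ± 1222 CPM in WT (SD, n = 3), 1063 ± 790 CPM in HET (SD, n = 5) and 1621 ± 579 CPM in HOM (SD, n = 3). Without HET 11 and HET 16 the HET mean was 1400.1 CPM. Scaled by TMM, as in the fits, the sums were 831 ± 743 CPM in WT, 1674 ± 1164 CPM in HET and 1144 ± 269 CPM in HOM (SD). With all 5 libraries HET was thus lowest by plain CPM and highest by TMM. The order of these groups depended on the scaling. The TMM factors of HET 11 and HET 16 were 0.175 and 0.268, against 1.29 to 1.61 for the others, which raised their sums. Without these 2 libraries the HET mean by plain CPM lay between those of WT and HOM. The sum by TMM was not worked out without them. Map3k14 alone gave 1780 of the 2583 CPM in WT 12 and 1642 of the 2214 CPM in HET 15.

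**Figure D5:**
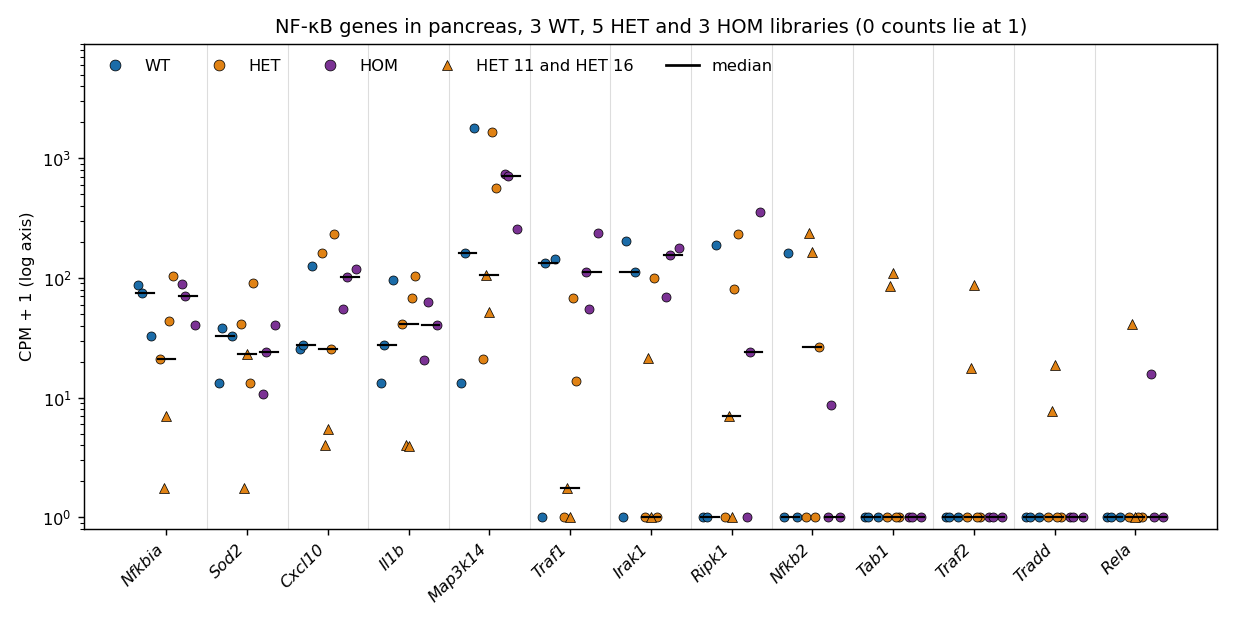
CPM of selected genes in pancreas, 1 point a library, for WT, HET and HOM, with a bar at the group median and triangles for HET 11 and HET 16. Tab1, Traf2, Tradd and Rela each had counts in 2 of the 11 libraries, and their groups overlap at 0. The groups overlap for each gene, and for Nfkb2 the highest points are HET 11 and HET 16.

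Nfkb2 had the largest fitted differences of the 7 genes in both comparisons with HET. It stood at 0, 0 and 159 CPM in WT 11, WT 12 and WT 16, at 0, 25.6, 237, 0 and 163 CPM in HET 9, HET 10, HET 11, HET 15 and HET 16, and at 0, 0 and 7.77 CPM in HOM 10, HOM 19 and HOM 21. The high libraries were HET 11, HET 16 and WT 16, and the other 8 held 0 to 2 counts. The log2 fold change of HET over WT was 4.59 ± 2.43 (SE; edgeR adjusted p = 0.399). That of HOM over HET was −5.79 ± 2.53 (SE; edgeR adjusted p = 0.292, unadjusted p = 0.0220). Over 16 alternatives the first ran from 2.42 to 8.22 and the second from −7.80 to −3.78. Mean CPM differed less, at 53.1 in WT and 85.1 in HET, or 8.54 in HET without HET 11 and HET 16. The fit used TMM factors of 0.175 for HET 11 and 0.268 for HET 16, against 1.29 to 1.61 for the others, which raised the fitted levels of those 2 libraries. Without HET 11 and HET 16, the gene did not pass the filter. Nfkb2 overlaps Psd on the opposite strand, and Psd had 146 counts in HET 11, 17 in HOM 10 and 0 in the other pancreata.

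Several pathway genes were seen mainly in HET 11 and HET 16, the deepest pancreas libraries. Tab1, which activates the kinase TAK1, had 113 counts in HET 11, 73 in HET 16 and 0 in the other 9. Traf2 had 22 and 58 counts there and Tradd 9 and 12, again with 0 elsewhere. Rela had 53 counts in HET 11 and 3 in HOM 10, Tnfrsf1a 65 in HET 11, 7 in HET 16 and 0 to 2 elsewhere. Myd88 and Traf3 had 23 and 16 counts in HET 11 alone. In edgeR fits of HET against WT with no filter beyond 1 count, Tab1 and Traf2 had unadjusted p of 0.0199 and 0.0494. Their adjusted p were 0.582 and 0.684. Otub1, the close relative of Otub2, had 163 and 117 counts in HET 11 and HET 16 against at most 1 in any other pancreas, so these genes moved with the libraries of high stomach mucosa and low receptor counts. The part of tissue content in that was not tested, and none of these genes could be compared between genotypes without those 2 libraries.

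Other genes had most of their counts in 1 or 2 libraries. Nfkb1 had 50 counts in HOM 19, which is 987 CPM, 7 in HOM 10 and 0 or 1 in the rest. Rel had 12 counts, all in HOM 10, the library that also held 28 counts of the leukocyte gene Ptprc, against 0 or 1 in the others. The whole list of 4 leukocyte genes did not set HOM 10 apart. It summed to 171 CPM in HOM 10, 179 CPM in HET 10 and 162 CPM in HET 9. The part of leukocyte content in the Rel counts was not tested. Birc3 had 25 counts in HET 15 and 9 in HOM 10, and Relb 19 in WT 16. No group shared any of these high values among all its libraries. The remaining 13 genes with counts in pancreas had 1 to 12 counts over all 11 libraries: Bcl3, Nfkbib and Nfkbiz of the IkB family, the kinase genes Ikbkb, Chuk, Tab2 and Map3k7, the adaptors Traf5 and Traf6, the deubiquitinase gene Cyld, Tnf and Tnfrsf1b, and the target Icam1.

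Map3k14, which overlaps 1700028N14Rik on the same strand, was found in all 11 pancreata. It stood at 12.3, 1780 and 159 CPM in WT 11, WT 12 and WT 16, and at 736, 257 and 715 CPM in HOM 10, HOM 19 and HOM 21. In HET 9, HET 10, HET 11, HET 15 and HET 16 it stood at 20.2, 563, 104, 1642 and 50.7 CPM. WT and HET each held both very low and very high libraries, and the HOM values lay inside both ranges. The HET mean was 476 ± 688 CPM (SD, n = 5), or 742 ± 825 CPM (SD, n = 3) without HET 11 and HET 16. The same kinase stood at 1.39 to 25.8 CPM in liver.

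Traf1, an adaptor that NF-kB induces and that binds Traf2, stood at 0, 142 and 133 CPM in WT and 112, 237 and 54.4 CPM in HOM. In HET 9, HET 10, HET 11, HET 15 and HET 16 it stood at 0, 12.8, 0.754, 67.6 and 0 CPM. WT 12 and WT 16 were above all HET, WT 11 was at 0, and HET 15 lay within the range of the HOM. The log2 fold change was −2.73 ± 2.43 in HET against WT and 2.74 ± 2.27 in HOM against HET (SE; edgeR adjusted p = 0.783 and 0.928). Without HET 11 and HET 16 these were −1.93 and 2.15. Irak1 had a like spread, with 0, 110 and 202 CPM in WT, 0, 0, 20.4, 98.4 and 0 CPM in HET 9, HET 10, HET 11, HET 15 and HET 16, and 68.3, 178 and 155 CPM in HOM. Ripk1, the kinase at the tumour necrosis factor receptor, was at 0 in 2 WT, 2 HET and 1 HOM, and reached 189, 231 and 355 CPM in the highest library of each group. The groups overlapped for both kinases.

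Nfkbia, the inhibitor gene, was found at low level in every pancreas: 86.2, 31.5 and 74.3 CPM in WT, 20.2, 102, 0.754, 43.0 and 5.96 CPM in HET 9, HET 10, HET 11, HET 15 and HET 16, and 87.8, 39.5 and 69.9 CPM in HOM. The WT and HOM ranges nearly coincided. The lowest values were those of HET 11 and HET 16, from 1 and 4 counts. The HET mean was 34.5 ± 41.4 CPM (SD, n = 5), or 55.2 ± 42.5 CPM (SD, n = 3) without them. Sod2 was likewise present throughout with 1 to 15 counts a library.

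Cxcl10, a chemokine that interferon and NF-kB induce and whose promoter holds both windows printed above, stood at 24.6, 126 and 26.5 CPM in WT and 53.6, 118 and 101 CPM in HOM. In HET 9, HET 10, HET 11, HET 15 and HET 16 it stood at 162, 231, 3.02, 24.6 and 4.47 CPM. HET held both the highest and the lowest pancreata, and the groups overlapped. The HET mean was 84.8 ± 105 CPM (SD, n = 5), or 139 ± 105 CPM (SD, n = 3) without HET 11 and HET 16. The gene lies within Art3 on the opposite strand, which had 0 to 11 counts in each pancreas, so reads of the 2 genes cannot be told apart if strand was not used.

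Interleukin 1 and its receptor were seen in opposite tissues. Il1b, the cytokine, had 1 to 11 counts in each of the 11 pancreata and 0 in all 7 livers, while Il1r1, its receptor, had 3 to 56 counts in each liver and 0 in all pancreata. In pancreas Il1b stood at 12.3, 94.5 and 26.5 CPM in WT, 40.4, 102, 3.02, 67.6 and 2.98 CPM in HET 9, HET 10, HET 11, HET 15 and HET 16, and 19.5, 39.5 and 62.1 CPM in HOM. Its group means were 44.5 ± 43.9 CPM in WT (SD, n = 3), 43.3 ± 42.9 CPM in HET (SD, n = 5) and 40.4 ± 21.3 CPM in HOM (SD, n = 3). Without HET 11 and HET 16 the HET mean was 70.2 ± 31.1 CPM (SD, n = 3). The 3 groups overlapped with and without those libraries. The antisense gene Il1bos had 0 counts in all libraries. Neutrophil genes were present beside it: S100a8 had 15 to 113 counts and S100a9 51 to 302 counts in each pancreas, while liver had 0 of the first and 0 to 3 of the second. The list of 5 neutrophil genes summed to 1231 to 2536 CPM in WT, 72.4 to 5583 CPM in HET and 1009 to 3948 CPM in HOM, lowest in HET 11 and HET 16, which were also lowest for Il1b. S100a8 and S100a9, with 642 and 1395 counts over the pancreata, held most of that list, while Csf3r had 18. The leukocyte gene Ptprc had counts in 2 pancreata. The list thus rests mainly on 2 genes, and the part of neutrophil content in the Il1b level was not tested. The tissues were deposited in separate tables, each gene's CPM is a share of its own library, and no test was made across them.

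Of the further lists, 2 to 3 genes each passed the filter in pancreas, and 0 were called in any comparison.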

How the data were processed

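Libraries were made by bulk MARS-seq from TRI reagent RNA of whole tissue, per the labels' protocols. The submitters' processing notes name cutadapt, STAR and mm10. Versions, counting tool, annotation, strand use and barcode handling are not given in the sources used here. As deposited, the authors' values are whole-number counts per gene in 1 table a tissue, called corrected without saying for what.

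CPM divides a count by its library total and multiplies by 1000000. Counts were tested in R 4.3.3 with edgeR 4.0.16: filterByExpr, TMM scaling, a robust quasi-likelihood fit and Benjamini-Hochberg adjustment over all genes tested, with a threshold of 0.05. The 11 pancreata were fitted together with genotype and sex, the 7 livers with genotype. The SE of an edgeR fold change was worked back from its F statistic, and the 95% interval from that SE. Fits were also run on simulated counts with a dispersion shared by all genes, and the outcome is not given here. Alternatives were DESeq2 1.42.0, its size factors, other filters, no sex term, males only, a replicate block and leaving out libraries; total-count scaling and leaving out HET 11 and HET 16 together were chosen after seeing the data. Positions come from GENCODE M21, which matched all 40 genes; 21 overlap another gene.

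The genes, lists and tests were chosen with earlier results of these data known. Genes were given by library where they passed the filter or had at least 10 counts in a library, otherwise by range; from each further list, up to 4 genes of smallest p. Relb, Cxcl1, Sharpin, Sirt2, Psd, Art3, Ptprc, Saa1 and Il1bos were added after their values were seen.
The result of 1 gene of the further lists is not reported here.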

Additional observations from a re-analysis of the deposited data

Results flagged for a closer look

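In 6 of 22 groups of 5 libraries checked, 1 library lay far from the other 4 by Dixon's criterion. Chance alone meets it in about 1 in 20 groups only where values follow a normal distribution. These CPM are skewed and hold zeros, so the 6 cannot be read as an excess. In pancreas, HET 15 stood at 67.6 CPM for Traf1, with the other HET at 0 to 12.8 CPM, and at 98.4 CPM for Irak1, with the others at 0 to 20.4 CPM. In liver, HET 5 stood at 122 CPM for Nfkbia against 64.2 to 74.5 CPM, at 326 CPM for Sod2 against 104 to 121 CPM, and at 1065 CPM for the sum of the 40 genes against 662 to 748 CPM. HET 4 stood at 22.7 CPM for Map3k14, with the other HET livers at 1.39 to 6.58 CPM. The groups are few and share libraries, so the flags are not independent.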

How the results depend on the processing

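No gene of the 40 was called under any of the 72 alternatives (19 for HOM and WT, 20 for each other pancreas pair, 13 in liver), and the lowest adjusted p among them was 0.119. Counts over all genes, 0 in each comparison by edgeR, did change, and the causes were not tested. DESeq2 called 183 between HET and WT, 53 between HOM and HET, 5 between HOM and WT, and 16 in liver. For HET and WT in pancreas, total-count scaling called 23, dropping the sex term 146 and the replicate block without sex 149. Leaving out HET 11 and HET 16 gave 13 between HOM and WT, 9 between HET and WT and 7 between HOM and HET. In liver, no filter gave 57 and a mean of 10 CPM gave 6. Leaving out 1 library gave 0 to 92 between HET and WT (92 without HET 15, 43 without HET 9), 0 to 4 between HOM and WT (4 without HET 16) and 0 to 6 in liver (6 without HET 5, 4 without WT 1, 1 without HET 1).

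The signs of Il1r1, Irak1, Nfkbib and Tnfrsf1a in liver held under all 13 alternatives, and that of Map3k14 in the 7 that tested it. Those of the other 8 genes turned in at least 1. Total-count scaling gave −0.029 for Nfkbia in liver. It shifted the median over all genes tested from −0.20 to −0.77 between HET and WT pancreas, from 0.35 to 0.72 between HOM and HET, from 0.19 to −0.05 between HOM and WT and from 0.03 to −0.07 in liver. DESeq2 size factors shifted it to 0.04 between HOM and WT and 0.23 between HOM and HET. With no filter, Bcl3 was 0.059, Myd88 0.14 and Rela 0.12. With a mean of 10 CPM, Myd88 was 0.019 and Rela 0.020. Leaving out 1 liver gave −0.48 to 1.07 for Bcl3, −0.44 to 0.049 for Ikbkb, −0.11 to 0.13 for Myd88, −0.12 to 0.15 for Nfkbia, −0.28 to 0.60 for Rela, −0.15 to 0.82 for Sod2, −1.31 to 0.75 for Tradd and −1.001 to 0.15 for Traf2. The upper ends of Bcl3, Ikbkb, Rela, Tradd and Traf2 came without WT 2.

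Libraries of different genotypes share replicate numbers. Deviations of same-numbered libraries from their group means had r of −0.05 to 0.08. The pairs are few, and the deviations of the 2 WT livers mirror each other, so these values cannot decide whether the numbers pair animals. The replicate block over liver numbers 1 and 2 gave 0.35 for Myd88, −0.13 for Nfkbia, 0.11 for Rela and −0.24 for Sod2, and called no gene.

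For lack of counts, 27 of the 40 genes in liver and 33 in pancreas did not pass the filter and were not compared in the main fits. Looser filters tested up to 37 of the 40 in liver and 33 in pancreas, and called none.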
